A study of Mus musculus with 4 samples.

Results

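The 10 genes described here are ligands and receptors of the interleukin-1 (IL-1) family: the ligands Il1a, Il1b and Il18, the receptor antagonist Il1rn, the decoy receptor Il1r2, the receptors Il1r1, Il1rl1 and Il18r1, and the accessory chains Il1rap and Il18rap. They were chosen by name, from 24421 genes in the deposited count tables, and all 10 were among the 16322 genes that passed the filter on low counts. The libraries were made from regulatory T cells (Tregs), the Foxp3-expressing CD4 T cells that restrain immune responses, taken from parabiotic mice. In these pairs a CD45.1+ mouse carrying a tumor shared its circulation with a CD45.1- mouse that had none. The Tregs came from omental tumors (2 libraries, mouse 2 and mouse 3) and from the spleens of the same tumor-bearing mice (2 libraries, mouse 2 and mouse 3). The tumor bearers had received EG7.1.15 tumor cells into the peritoneal cavity, and tissue was taken at day 14. All 4 libraries are labelled with the strain B6 Foxp3-DTR/GFP, so every sorted cell carried the diphtheria toxin receptor and GFP construct at Foxp3. The cells were sorted as live, CD45.1-, CD45.2+, B220-, CD4+, CD25+ and GFP+, so they had entered each tissue from the partner's circulation. The comparison asks how Tregs that had reached the tumor-bearing omentum differ from those that had reached the spleen.

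IL-1 alpha and IL-1 beta are inflammatory cytokines that bind the same receptor, IL-1R1, which signals after it recruits the accessory chain IL-1RAP. The antagonist encoded by Il1rn occupies IL-1R1 without recruiting that chain, and IL-1R2 binds IL-1 without signalling, as a decoy. IL-33 and IL-18 use related receptors, ST2 (encoded by Il1rl1) with IL-1RAP and IL-18R1 with IL-18RAP, and ST2 is known as a marker of Tregs in non-lymphoid tissue.

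In GENCODE M21 on GRCm38 (mm10), 5 of the 10 genes lie side by side on the plus strand of chromosome 1, in the order Il1r2 (chr1:40074079-40125231), Il1r1 (chr1:40225080-40317257), Il1rl2 (not among the 10, chr1:40324610-40367562), Il1rl1 (chr1:40429570-40465415), Il18r1 (chr1:40465552-40500854) and Il18rap (chr1:40515362-40551705). The ligand genes Il1a (chr2:129299610-129309972) and Il1b (chr2:129364570-129371139) are neighbours on the minus strand of chromosome 2. Il1rn is elsewhere on chromosome 2, on the plus strand (chr2:24336853-24351494). Il18 is on chromosome 9 (chr9:50554827-50581840, plus strand) and Il1rap on chromosome 16 (chr16:26581704-26730117, plus strand).

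The sequences shown are the 250 bases before the RefSeq start sites (GRCm38.p6) of Il1a, Il1b and Il1rn, because these were the members that were called higher together in the omental tumor libraries. Il1rn is shown at 2 of its 3 annotated starts, which the gene-level counts cannot separate. Each runs 5′ to 3′ on the gene's strand, and capitals mark a match on either strand to a short motif.
Il1a (chr2:129309973-129310222, minus strand): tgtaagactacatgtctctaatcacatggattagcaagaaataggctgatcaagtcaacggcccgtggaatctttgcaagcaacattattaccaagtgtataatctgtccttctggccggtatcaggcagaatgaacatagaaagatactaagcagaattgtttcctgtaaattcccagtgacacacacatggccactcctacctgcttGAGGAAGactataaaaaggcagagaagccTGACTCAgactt
Il1b (chr2:129371140-129371389, minus strand): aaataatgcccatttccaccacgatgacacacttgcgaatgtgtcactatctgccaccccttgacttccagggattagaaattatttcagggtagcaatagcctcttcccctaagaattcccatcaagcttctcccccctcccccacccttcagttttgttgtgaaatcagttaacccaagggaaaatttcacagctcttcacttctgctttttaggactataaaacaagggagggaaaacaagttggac
Il1rn first start (chr2:24336610-24336859, plus strand): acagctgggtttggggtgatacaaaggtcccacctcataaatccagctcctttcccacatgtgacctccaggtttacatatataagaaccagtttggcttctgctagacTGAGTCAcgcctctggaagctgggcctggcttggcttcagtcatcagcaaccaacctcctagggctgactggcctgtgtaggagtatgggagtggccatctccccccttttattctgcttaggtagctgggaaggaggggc
Il1rn last start (chr2:24345121-24345370, plus strand): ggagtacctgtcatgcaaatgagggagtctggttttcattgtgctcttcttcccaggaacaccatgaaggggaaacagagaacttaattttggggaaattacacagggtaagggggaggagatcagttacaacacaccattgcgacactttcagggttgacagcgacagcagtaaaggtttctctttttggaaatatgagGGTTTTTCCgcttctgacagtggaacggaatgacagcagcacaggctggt
Of 32851 mouse promoter windows of this length, 6.75% held the AP-1 motif searched, TGANTCA. The NF-kB motif, GGNNTTTCC, was in 4.93%, and the C/EBP motif, TTGCNNAA, in 9.56%. The PU.1 motif, GAGGAAG, was in 10.6%. The GATA motif, spelled AGATAA, was in 9.99%. The Il1a window held a PU.1 match beginning 41 bases before the start and an AP-1 match beginning 12 bases before it. The first Il1rn window held an AP-1 match beginning 141 bases before the start, and the last an NF-kB match beginning 50 bases before it. At the middle Il1rn start, whose window is not shown, no motif searched had a match. The Il1b window held no match to any of the 5 motifs. The NF-kB motif was first searched with 1 more leading G, which matched 1.41% of promoters and 1 of the 10 genes, Il1rn. The form given here was chosen after those matches were seen, and it matched Il18rap as well. Matches describe letters in these windows and are not measured binding.

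The omental tumor library of mouse 3 stood apart from the other 3 in its summed neutrophil markers. Neutrophil markers summed to 145 and 1471 CPM (counts scaled to the same total over genes in every library) in the omental tumor libraries of mouse 2 and mouse 3, against 100 and 51.5 CPM in the spleen libraries of mouse 2 and mouse 3. Summed over the libraries, the most abundant of them were S100a9 (1.8 and 499 CPM in omental tumor, against 9.31 and 6.03 CPM in spleen), a calcium-binding protein of granulocytes, and the chemokine receptor gene Cxcr2 (78.4 and 183 CPM in omental tumor, against 48.7 and 16.7 CPM in spleen). S100a9 and its partner S100a8, named after its values were seen (0.15 and 432 CPM in omental tumor, against 6.41 and 7.65 CPM in spleen), were lower in the omental tumor library of mouse 2 than in either spleen library, while Cxcr2 was higher there than in both. Monocyte and macrophage markers summed to 598 and 885 CPM in omental tumor, against 240.1 and 376 CPM in spleen. Of 8 neutrophil markers tested, of 10 measured, 4 were called higher in omental tumor, 0 of them when paired by mouse, and Mpo was at 0 in the omental tumor library of mouse 3. Of 16 monocyte and macrophage markers tested, 3 were called higher, and 3 when paired by mouse. The most abundant of these markers were the lysozyme gene Lyz2 (286 and 312 CPM in omental tumor, against 7.01 and 49.6 CPM in spleen) and the growth factor receptor gene Csf1r (44.3 and 15.1 CPM in omental tumor, against 71.5 and 88.2 CPM in spleen). Cd14, an endotoxin co-receptor named after its values were seen, had 27.2 and 287 CPM in omental tumor, against 2.7 and 3.9 CPM in spleen. Transcripts of the sort markers were present in every library: Foxp3, which defines Tregs, had 93.1 and 88.5 CPM in omental tumor, against 116 and 116 CPM in spleen. Cd4 had 430.5 and 119.8 CPM in omental tumor, against 581 and 809.9 CPM in spleen. Treg markers summed to 3861 and 3793 CPM in omental tumor, against 2882 and 3118 CPM in spleen, with 0 of 7 called. Only 2 of the 7 had a positive log2 difference, and their median was -0.64. T lineage markers summed to 4361 and 4621 CPM in omental tumor, against 5709.8 and 7436 CPM in spleen. Of 9 tested, 0 were called and 0 had a positive difference, with a median of -1.37. Il2ra, which encodes CD25, had 789 and 335 CPM in omental tumor, against 716 and 712 CPM in spleen, and Ptprc, which encodes CD45, had 2376 and 971 CPM in omental tumor, against 2656 and 3242 CPM in spleen. The most abundant Treg markers, also the 2 with a positive difference, were Ctla4 (1417 and 1353 CPM in omental tumor, against 399.5 and 614 CPM in spleen) and Tnfrsf18 (795 and 1425 CPM in omental tumor, against 495 and 683 CPM in spleen). Gene totals ran from 3764508 to 6660230 counts in omental tumor and from 9989005 to 13598631 counts in spleen, so 1 count was worth 0.0735 to 0.266 CPM. In bulk libraries such as these, fewer cells of a type and less RNA per cell cannot be told apart.

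**Figure D1:**
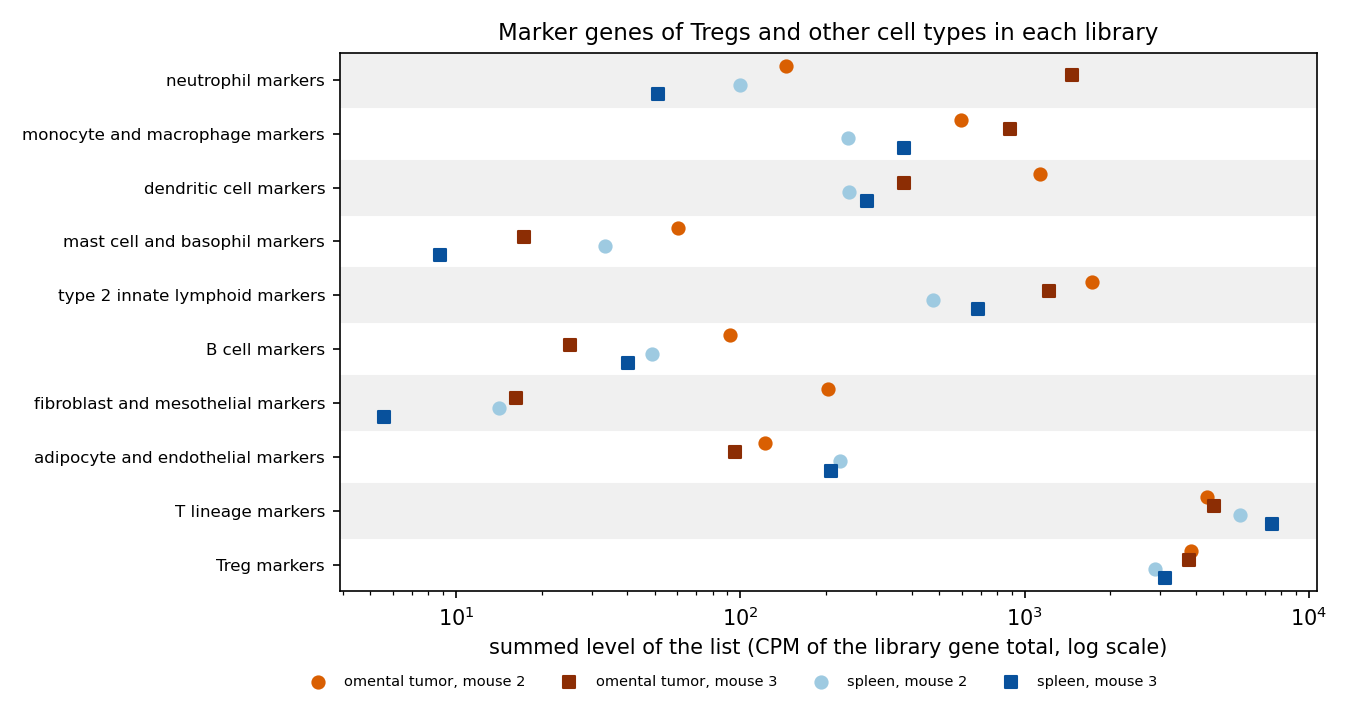
Summed CPM of each cell type marker list in the 4 libraries, on a log axis, with omental tumor Tregs beside spleen Tregs. The neutrophil list reached 1471 CPM in the omental tumor library of mouse 3 and 51.5 to 145 CPM in the other 3 libraries.

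Both IL-1 ligands and the IL-1 receptor antagonist were higher in the omental tumor libraries, and none of the 10 genes passed the test as lower. Of the 10, 3 passed an adjusted p of 0.05 in edgeR's quasi-likelihood test with Benjamini-Hochberg adjustment, all higher in omental tumor, where 1.16% of the 16322 tested genes were called higher and 0.263% lower. With the mouse as a replicate block the same 3 genes were called, against 1.29% of tested genes called higher. The median log2 difference over the 10 genes was 1.33, beside 0.13 over all genes tested. Without scaling beyond library totals the median of all genes was 0.40, a shift of 0.27, and the 3 calls held. They were lost without a filter on low counts (adjusted p = 0.204 to 0.239) and at a minimum count of 50 (0.0637 to 0.0736).

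Il1b, which encodes the secreted cytokine IL-1 beta, had 60.5 CPM (403 counts) and 1279 CPM (4816 counts) in omental tumor, against 3 CPM (30 counts) and 1.4 CPM (19 counts) in spleen. Both omental tumor libraries were above both spleen libraries, and within omental tumor the level in mouse 3 was 21.1-fold that in mouse 2. The log2 difference was 8.08 (SE 1.11, adjusted p = 5.66e-10), and 6.78 in the fit paired by mouse (adjusted p = 0.000808). Within mouse 2 the omental tumor level was 20.1-fold the spleen level, and within mouse 3 it was 916-fold. Without the omental tumor library of mouse 3 the difference was 4.41 (adjusted p = 0.00414).

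Il1a, which encodes the cell-associated IL-1 alpha, had 17.7 CPM (118 counts) and 219 CPM (826 counts) in omental tumor. In spleen it had 0.501 CPM (5 counts, 95% Poisson interval 0.163 to 1.17) and 0.956 CPM (13 counts, 0.509 to 1.63), intervals that cover counting error only. The groups did not overlap, and the lower omental tumor library was again that of mouse 2. The log2 difference was 7.02 (SE 0.998, adjusted p = 3.23e-09), and 6.34 paired by mouse (adjusted p = 0.000269). The Il1a call was lost without the omental tumor library of mouse 3, at 4.08 (adjusted p = 0.166). Il1a shares 222 of its 1974 exonic bases with the antisense gene Gm14023, which had 26 and 37 counts in omental tumor, against 36 and 24 in spleen, and reads from the 2 cannot be told apart there because the library kit does not mark strand.

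Il18, an IL-1 family ligand that acts with IL-12 to drive interferon-gamma, had 4.35 and 17.5 CPM in omental tumor, against 5.11 and 11.9 CPM in spleen. The groups overlapped, and mouse 3 was higher than mouse 2 in both tissues. The log2 difference was 0.01 (SE 0.91, adjusted p = 0.997).

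Il1rn, the antagonist that competes with both IL-1 ligands, had 75.4 CPM (502 counts) and 1284 CPM (4834 counts) in omental tumor, against 1.6 CPM (16 counts) and 4.49 CPM (61 counts) in spleen. As with the ligands, both omental tumor libraries were higher and that of mouse 3 was highest. The log2 difference was 7.48 (SE 1.07, adjusted p = 4.97e-09), and 6.63 paired by mouse (adjusted p = 0.000205). Within mouse 2 the omental tumor level was 47.1-fold the spleen level, and within mouse 3 286-fold. Without the omental tumor library of mouse 3 the log2 difference was 4.09 (adjusted p = 0.0044). The library that was highest for Il1a, Il1b and Il1rn was also the one with the highest neutrophil sum and the highest monocyte and macrophage sum. Within mouse 2 the neutrophil sum was 145 CPM in omental tumor, against 100 CPM in spleen, and Lyz2, Lyz1 and Cd14 were 40.8-fold, 27.9-fold and 10.1-fold their spleen levels. Those 3 were the called genes of the 16 tested monocyte and macrophage markers, while Csf1r was 0.62-fold its spleen level in mouse 2. Of the 16, 8 had a positive log2 difference, and the median over the 16 was -0.05. The part of neutrophils, monocytes and macrophages in the rise of Il1a, Il1b and Il1rn was not tested.

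**Figure D2:**
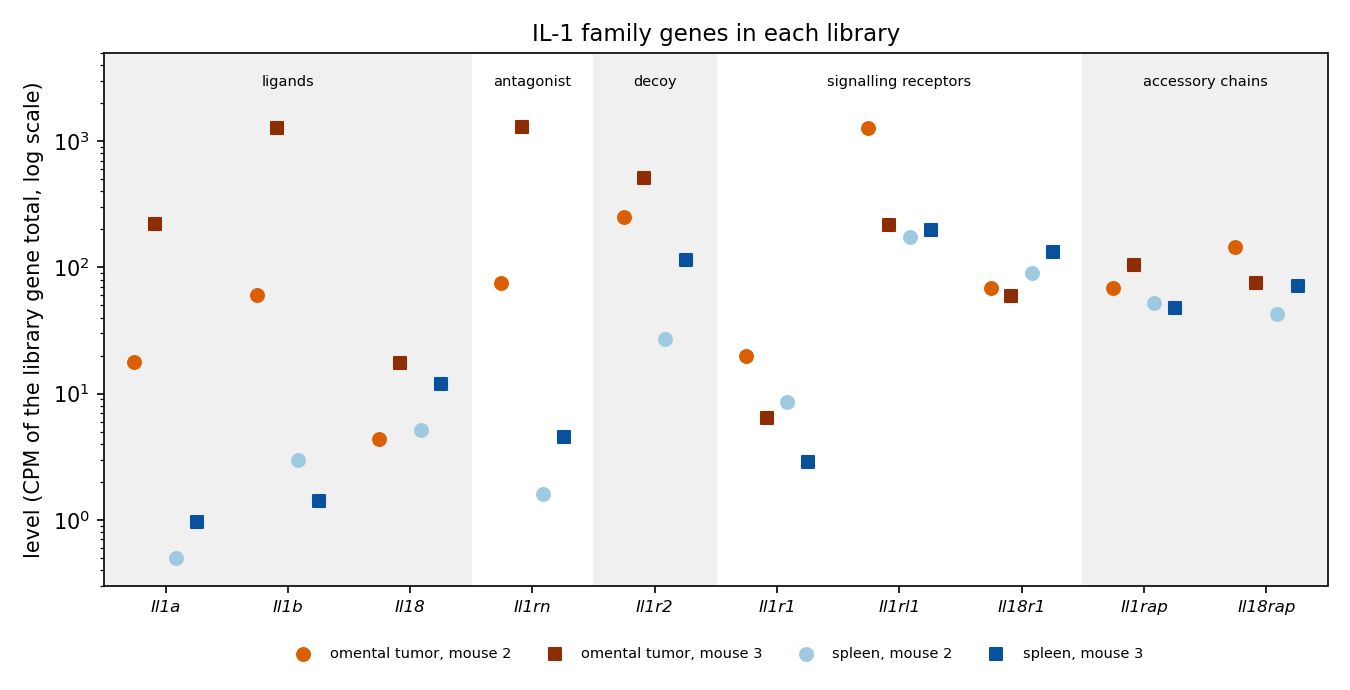
CPM of each of the 10 genes in the 4 libraries, on a log axis, with omental tumor Tregs left of spleen Tregs and 1 point per library. Il1a, Il1b and Il1rn were higher in both omental tumor libraries, while Il18 and Il1r1 overlapped between tissues.

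Antagonist and ligand were set against each other within each library. Il1rn made up 55.5% (95% Clopper-Pearson interval 52.2 to 58.7) and 50.1% (49.1 to 51.1) of the summed Il1rn and Il1b counts in omental tumor, against 34.8% (21.4 to 50.2) and 76.2% (65.4 to 85.1) in spleen. The 2 omental tumor shares lay between the 2 spleen shares, so the balance did not separate the tissues, although each gene alone differed. Per kilobase of exon, Il1rn was 0.624 and 0.503 times Il1b in omental tumor, against 0.267 and 1.61 times Il1b in spleen. Il1b made up 77.4% (73.5 to 80.9) and 85.4% (84.4 to 86.3) of the summed Il1b and Il1a counts in omental tumor, against 85.7% (69.7 to 95.2) and 59.4% (40.6 to 76.3) in spleen, and these too overlapped. An exact permutation test of 2 libraries against 2 cannot give a p below 0.33, so no share was tested.

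The decoy receptor gene Il1r2 had 250.3 CPM (1667 counts) and 513 CPM (1931 counts) in omental tumor, against 26.9 CPM (269 counts) and 115 CPM (1559 counts) in spleen. Both omental tumor libraries were above both spleen libraries, and mouse 3 was higher than mouse 2 in both tissues. Within mouse 2 the omental tumor level was 9.29-fold the spleen level, and within mouse 3 4.47-fold. The log2 difference of 2.06 (SE 0.80) did not pass the test (adjusted p = 0.26), nor did it paired by mouse, at 2.41 (adjusted p = 0.162). Over the fits that left out 1 library each it ranged from 1.25 to 4.12.

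The signalling receptor gene Il1r1 had 19.8 and 6.38 CPM in omental tumor, against 8.51 and 2.87 CPM in spleen. The groups overlapped, and mouse 2 was higher than mouse 3 in both tissues. Within each mouse the omental tumor level was above the spleen level, 2.33-fold in mouse 2 and 2.22-fold in mouse 3, and the log2 difference of 1.0 (SE 0.92) did not pass the test (adjusted p = 0.721). Per kilobase of exon, Il1r2 was 54.4 and 347 times Il1r1 in omental tumor, against 13.6 and 172 times Il1r1 in spleen. Decoy transcripts thus exceeded signalling receptor transcripts in every library. As a share of the summed counts of both genes, Il1r2 was 92.7% (91.4 to 93.8) and 98.8% (98.2 to 99.2) in omental tumor, against 76% (71.2 to 80.3) and 97.6% (96.7 to 98.3) in spleen.

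Il1rl1, which encodes the IL-33 receptor ST2, had 1263 and 215 CPM in omental tumor, against 174 and 199 CPM in spleen. The omental tumor library of mouse 2 held the high value, and the other 3 libraries lay close together. Within mouse 2 the omental tumor level was 7.26-fold the spleen level, and within mouse 3 1.08-fold. After TMM scaling the log2 ratio within mouse 3 was -0.27, so the direction there depends on the scaling. The log2 difference of 1.65 (SE 0.85) did not pass the test (adjusted p = 0.497), and without the omental tumor library of mouse 2 it was -0.04 (adjusted p = 0.996). That library also had the highest sums of fibroblast markers (203 and 16.2 CPM in omental tumor, against 14.2 and 5.59 CPM in spleen) and dendritic cell markers (1136 and 377 CPM, against 240.5 and 278 CPM). Most of its dendritic cell sum came from Cd74 (685 CPM) and H2-Ab1 (326 CPM). It was highest as well in mast cell and basophil markers (60.4 and 17.3 CPM in omental tumor, against 33.5 and 8.82 CPM in spleen). Markers of innate lymphoid cells, another cell type that carries ST2, summed to 1725 and 1219 CPM in omental tumor, against 476 and 685 CPM in spleen, mostly from Klrg1 and Rora, which tissue Tregs also express. The 1 called gene of that list was Arg1, encoding arginase, with 46.4 and 16.7 CPM in omental tumor, against 2 and 2.21 CPM in spleen (adjusted p = 0.0139). Calca, a neuropeptide gene, had 9.91 and 2.39 CPM (66 and 9 counts) in omental tumor, against 0.2 and 0.147 CPM (2 and 2 counts) in spleen. It missed the threshold in the main fit (adjusted p = 0.0518) and was called when paired by mouse (adjusted p = 0.00491). Both were named after their values were seen. The part of such cells in the Il1rl1 level was not tested. The library highest for Il1rl1 was not the one highest for Il1a, Il1b and Il1rn.

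The shared accessory chain Il1rap had 68.6 and 105 CPM in omental tumor, against 52.1 and 47.9 CPM in spleen. Both omental tumor libraries were higher, and the log2 difference of 0.54 (SE 0.73) did not pass the test (adjusted p = 0.8). Gene-level counts do not separate the membrane form of Il1rap from its soluble form. Il1rap shares 353 of its 8602 exonic bases with the antisense gene Gm20319, which had at most 4 counts in any library.

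The IL-18 receptor chains differed from each other in their order between tissues. Il18r1, the ligand-binding chain, had 68.5 and 59 CPM in omental tumor, against 90.1 and 132 CPM in spleen. It was the 1 member whose omental tumor libraries were both below both spleen libraries, with a log2 difference of -1.12 (SE 0.74, adjusted p = 0.629) that did not pass the test. Il18rap, the accessory chain next to it on chromosome 1, had 146 and 74.6 CPM in omental tumor, against 43 and 71.8 CPM in spleen, with a log2 difference of 0.60 (SE 0.73, adjusted p = 0.781). Within mouse 3 the omental tumor level was 1.04-fold the spleen level in CPM, and the log2 ratio was -0.33 after TMM scaling, so its direction there depends on the scaling.
Il18rap made up 68.1% (65.6 to 70.5) and 55.9% (51.4 to 60.3) of the summed counts of both chains in omental tumor, against 32.3% (29.8 to 34.9) and 35.2% (33.4 to 37) in spleen. These shares did not overlap between the tissues. Nor did those of Il1rl1 in the summed counts of Il1rl1 and Il18r1, a pair chosen after seeing the data, at 94.9% (94.4 to 95.3) and 78.5% (75.9 to 81) in omental tumor, against 65.9% (64 to 67.7) and 60.1% (58.7 to 61.5) in spleen. In the other pair chosen after seeing the data, Il1r2 and Il1rl1, the shares did overlap. There Il1r2 made up 16.5% and 70.4% in omental tumor, against 13.4% and 36.5% in spleen. As above, no share was tested. For Il18rap, the mice differed in omental tumor by 12.2 percentage points, beside a widest counting interval of 8.9 points, and in spleen by 2.9 points, beside 5.1 points.

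Counting libraries alone, in CPM of library gene totals, 7 of the 10 genes had both omental tumor libraries above both spleen libraries, 1 had both below, and 2 overlapped. The 7 include Il1rl1 and Il18rap, whose direction within mouse 3 depends on the scaling. Over all tested genes, 21.6% were above in this sense and 19.0% below.

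**Figure D3:**
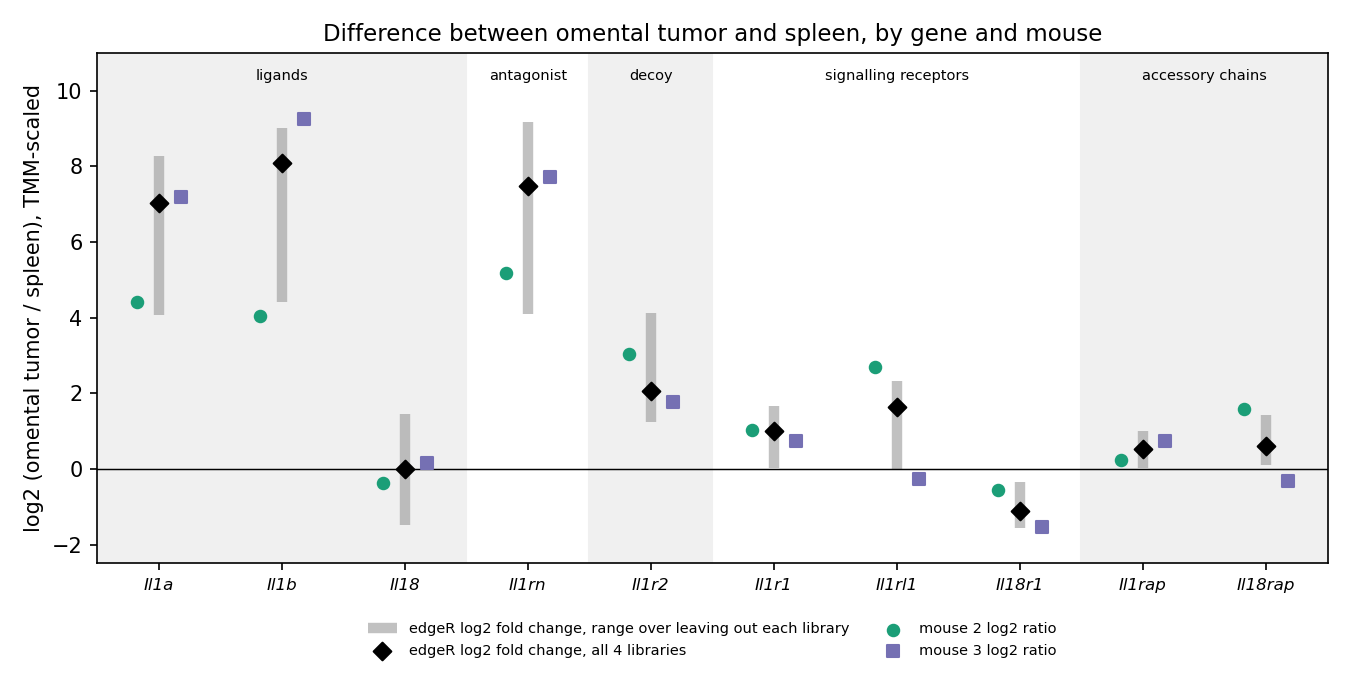
Log2 difference of omental tumor Tregs over spleen Tregs for each of the 10 genes, with the value within each mouse. Bars give the range over the fits that left out each library in turn and are not an SE. Il1b, Il1rn and Il1a lie at 8.08, 7.48 and 7.02, and the next is Il1r2 at 2.06.

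**Figure D4:**
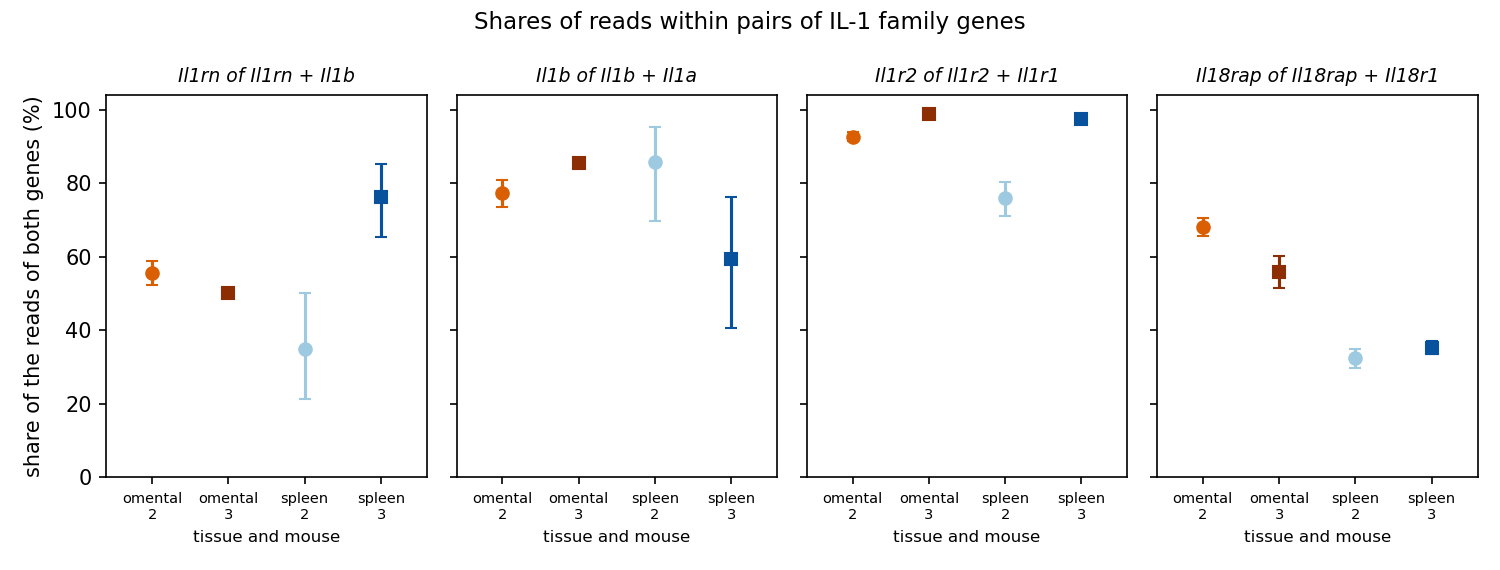
Share of the first gene in the summed counts of each pair, in percent with 95% Clopper-Pearson intervals, for omental tumor and spleen libraries. Il18rap made up 55.9% and 68.1% of its pair in omental tumor, against 32.3% and 35.2% in spleen.

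Levels of different genes were compared per kilobase of exon (CPM per kb). In the omental tumor library of mouse 2 the order began with Il1rl1 (185), Il1r2 (176) and Il1b (44.6). In that of mouse 3 it began with Il1b (943), Il1rn (475) and Il1r2 (361), and Il1rl1 was lower, at 31.5. Spleen of mouse 2 began with Il1rl1 (25.4) and Il1r2 (19), and spleen of mouse 3 with Il1r2 (80.8) and Il1rl1 (29.1). Il1r1 was lowest in both omental tumor libraries and in the spleen of mouse 3, and Il1a in the spleen of mouse 2. Per kilobase of the longest transcript, Il18r1 (21.7) stood above Il1r2 (19) in the spleen of mouse 2, and Il1a (0.484) was below Il1r1 (0.493) in the spleen of mouse 3. Ligands made up 11.5% and 54.1% of the summed CPM per kb of the 10 genes in omental tumor, against 8.49% and 7.56% in spleen. The antagonist made up 5.55% and 24% in omental tumor, against 0.678% and 0.959% in spleen. The signalling receptors made up 40.3% and 2.26% in omental tumor, against 52.1% and 33% in spleen, so the receptor share of the omental tumor library of mouse 2 lay between those of the spleen libraries and that of mouse 3 lay far below them.

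**Figure D5:**
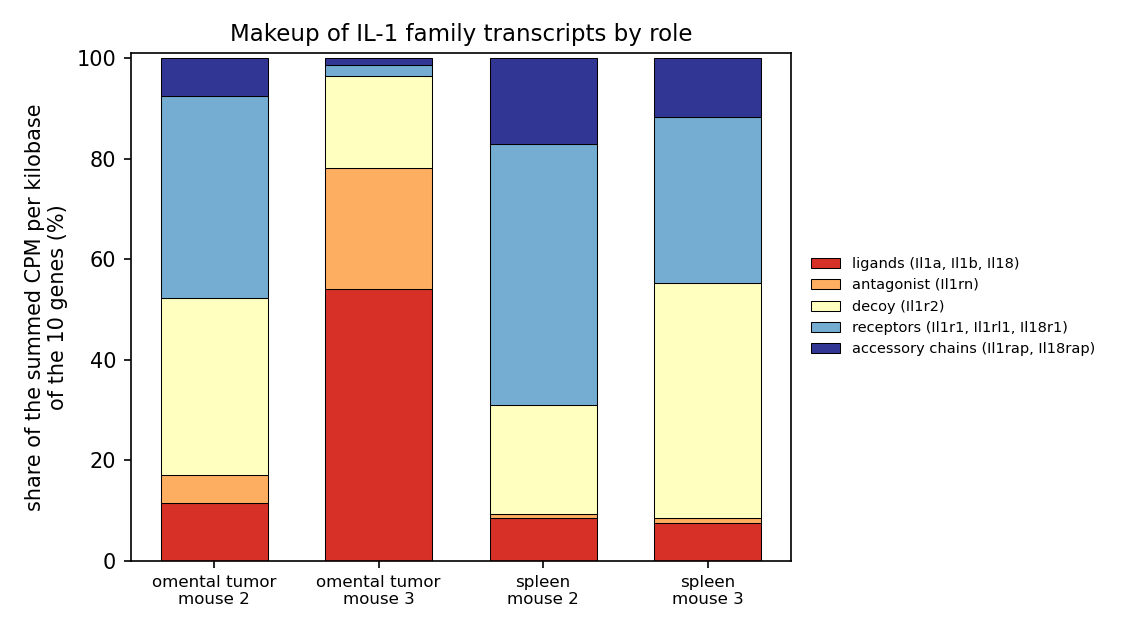
Share of ligands, antagonist, decoy, receptors and accessory chains in the summed CPM per kb of the 10 genes, in percent, for each library. Ligands and antagonist together take most of the omental tumor library of mouse 3, where receptors are at 2.26%.

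The genes most like 4 of the members were found as the smallest root mean square distance between centred log2 CPM values over the 4 libraries, among 10833 genes that reached 10 CPM in their highest library. For Il1b they were Thbs1, a matrix glycoprotein (distance 0.271), Ccl8, a chemokine (0.344), Hdc, the histamine-forming enzyme (0.42), Areg, the growth factor amphiregulin (0.538), and Il1a (0.783). For Il1r2 they were Cx3cr1 (0.272), Ccr8 (0.313), Slc15a3 (0.346), Cxcr6 (0.364) and Id2 (0.437). Ccr8, a chemokine receptor known from tumor Tregs, had 432 and 636 CPM in omental tumor, against 58.6 and 156 CPM in spleen. For Il1rl1 they were Spty2d1 (0.161), Slco2b1 (0.178), Col18a1 (0.18), Nr4a1 (0.186) and Stab1 (0.198). Nr4a1, an early gene after T cell receptor signalling, had 1136 and 187 CPM in omental tumor, against 138 and 129 CPM in spleen. For Il18r1 they were Rpusd1 (0.0304), R3hcc1 (0.0352), Rnf219 (0.0404), Bin3 (0.0427) and Pef1 (0.0469). With 4 libraries, such likeness describes these libraries alone.

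Of the other IL-1 family genes measured, 8 were tested and 1 was called. Il1f9, which encodes the epithelial cytokine IL-36 gamma, had 38.1 and 131 CPM in omental tumor, against 19.2 and 4.27 CPM in spleen, with a log2 difference of 2.71 (SE 0.79, adjusted p = 0.045). It missed the threshold when paired by mouse (2.68, adjusted p = 0.163) and without the omental tumor library of mouse 3 (adjusted p = 0.802), the spleen library of mouse 2 (0.347) or that of mouse 3 (0.771). Sigirr, an inhibitory receptor of the family, had 96.1 and 66.7 CPM in omental tumor, against 228 and 240.4 CPM in spleen (log2 difference -1.82, adjusted p = 0.351). Il33, the ligand of ST2, had 7.96 and 0.797 CPM in omental tumor, against 3.3 and 0.368 CPM in spleen (1.17, adjusted p = 0.725). Il18bp, the soluble IL-18 inhibitor, had 7.36 and 28.7 CPM in omental tumor, against 6.41 and 9.93 CPM in spleen (0.83, adjusted p = 0.751). The IL-36 receptor gene Il1rl2 had 4.2 and 2.13 CPM in omental tumor, against 2.2 and 2.94 CPM in spleen (0.02, adjusted p = 0.996). Il1rapl1, Il1rapl2 and Il1f8 had log2 differences of 0.85, 0.57 and 0.60, with adjusted p of 0.785, 0.851 and 0.872. Il1f5, Il1f6 and Il1f10 had at most 8 counts in any library and did not pass the filter.

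Downstream of the receptors, 28 of 28 listed IL-1 receptor signalling genes were tested and 0 were called by edgeR, 5 of them having an unadjusted p under 0.05. Over all 16322 genes tested in that fit, 1673 had an unadjusted p under 0.05. Of the 28, 14 had a positive difference, and their median log2 difference was 0.02. The smallest p was that of Rel, an NF-kB subunit, with 461 and 174 CPM in omental tumor, against 91.1 and 68.2 CPM in spleen (1.71, adjusted p = 0.409). Tab1, Rela and Ikbkb followed, with log2 differences of -1.69, -1.61 and -1.62 (adjusted p = 0.421, 0.446 and 0.47). Of the 5 genes with an unadjusted p under 0.05, all but Rel were lower in omental tumor.

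Of 19 tested genes of the inflammasome and of IL-1 processing, 2 rose and 1 fell, with a median log2 difference of -0.05. With library totals alone 0 of them were called, at an adjusted p of 0.0997 for Nlrp3, 0.117 for Mefv and 0.201 for P2rx7. Nlrp3, the sensor that drives caspase-1 cleavage of IL-1 beta, had 42 and 266 counts in omental tumor, against 8 and 0 counts in spleen (6.50, SE 1.12, adjusted p = 3.45e-06). Without the omental tumor library of mouse 3 its adjusted p was 0.507, and it was 0.143 by DESeq2 and 0.0698 by limma-voom. Mefv, the pyrin gene, had 13.2 and 50.2 CPM in omental tumor, against 2 and 0.735 CPM in spleen (4.35, adjusted p = 0.00181), and it missed the threshold without the omental tumor library of mouse 3 (0.624), the spleen library of mouse 2 (0.198) or that of mouse 3 (0.0894). P2rx7, the ATP receptor upstream of the inflammasome, had 49.4 and 18.9 CPM in omental tumor, against 212 and 216 CPM in spleen (-2.95, adjusted p = 0.0213). That call was lost paired by mouse (adjusted p = 0.0664) and without any 1 library (0.0726 to 0.547). Txnip, a thioredoxin inhibitor, had 107 and 152 CPM in omental tumor, against 839.8 and 928 CPM in spleen (-3.05, adjusted p = 0.0651), and it was called lower by DESeq2 (0.00286), limma-voom (0.00756) and edgeR's robust fit (0.0383).

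Among genes known to respond to IL-1, 5 of 19 tested rose and 0 fell, with a median log2 difference of 1.72. With library totals alone 2 were called, as Cxcl3 (adjusted p = 0.107), Cxcl1 (0.0889) and Ccl2 (0.111) were lost, and without the spleen library of mouse 2 there was 1, without the omental tumor library of mouse 3 there were 3. The neutrophil chemokine gene Cxcl2 had 56.9 and 714 CPM in omental tumor, against 0.3 and 1.4 CPM (3 and 19 counts) in spleen (8.45, adjusted p = 4.26e-11), and its difference was 5.48 without the omental tumor library of mouse 3. Ptgs2, the inducible prostaglandin synthase, had 39.3 and 125 CPM in omental tumor, against 2.2 and 1.25 CPM in spleen (5.36, adjusted p = 3.42e-06). Cxcl3 and Cxcl1, related chemokines, had log2 differences of 4.44 (adjusted p = 0.000705) and 5.88 (adjusted p = 0.00106). In spleen, Cxcl1 had only 4 counts in mouse 2 and 1 in mouse 3. Ccl2, the last of these 5 genes and named after its values were seen, had 21.2 and 12 CPM in omental tumor, against 0.701 and 0.294 CPM in spleen (4.81, adjusted p = 0.00501). With 1 library left out, the highest adjusted p was 0.0649 for Ptgs2, 0.646 for Cxcl3 and 0.179 for Cxcl1. Many of these genes are also made by myeloid cells. In omental tumor, Cxcl2, Ptgs2, Cxcl3 and Cxcl1 were higher in mouse 3, as were the neutrophil and the monocyte and macrophage marker sums. Ccl2 was higher in mouse 2. The part of myeloid cells in these levels was not tested.

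Among Treg genes known to respond to IL-33 or IL-18, 2 of 11 tested rose and 0 fell, with a median log2 difference of 0.67. With library totals alone, and without any 1 of the libraries, 1 was called. Areg, the tissue-repair growth factor, had 87.4 and 647 CPM in omental tumor, against 2.5 and 1.03 CPM in spleen (7.53, adjusted p = 4.66e-10), and its difference was 5.27 without the omental tumor library of mouse 3. Within omental tumor the Areg level in mouse 3 was 7.4-fold that in mouse 2, while the Il1rl1 level was 0.171-fold. The part of IL-33, IL-18 or other cells in the Areg level was not tested. Il5, a type 2 cytokine gene, had 4.35 and 9.3 CPM (29 and 35 counts) in omental tumor, against 0.3 and 0 CPM (3 and 0 counts) in spleen (5.29, adjusted p = 0.0306). Its log2 difference with 1 library left out ran from 4.54 to 8.53. Il10 had 29.1 and 89.3 CPM in omental tumor, against 7.31 and 16.8 CPM in spleen (1.97, adjusted p = 0.289). Cxcr3, a chemokine receptor of type 1 Tregs, had a log2 difference of -1.49 (adjusted p = 0.478).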

How the data were processed

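RNA from sorted Tregs was made into cDNA with SMART-seq v4 and into libraries with Nextera XT, per the labels' protocols, and neither marks strand. The deposited values are whole-number counts per gene, not normalized, 1 table per library. Per the submitters' processing notes the tools were Trim Galore, TopHat2, SAMtools and HTSeq with the mm10 build; versions, settings and annotation were not given in the sources used here. Summary entries were left out of library totals, and 17.1% and 22.2% of all entries were in genes in omental tumor, against 24.9% and 46% in spleen.

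Counts were scaled as CPM of the gene total, and tested with edgeR 4.0.16 (R 4.3.3) by its quasi-likelihood test with TMM factors after filterByExpr at a minimum count of 10, with Benjamini-Hochberg adjustment over 16322 genes and a threshold of 0.05. Alternatives used DESeq2 1.42.0, limma 3.58.1, other scalings and filters, each library left out in turn, and the mouse as a replicate block. The mouse number marks the same animal in both tissues, so the samples are paired, and the deviations of same-numbered libraries from their group means correlated at 0.232 across genes. With 2 libraries a group, the prior degrees of freedom of the spread were infinite in the main fit. Its p-values thus rest on a spread pooled over the tested genes, not on each gene's own spread between these mice. On simulated counts of 16322 genes, 0% of 2-fold, 8% of 4-fold, 66% of 16-fold and 98% of 64-fold changes were called, with 5 false calls. Every simulated gene had the same spread, and no difference between mice or in cell makeup was simulated. These shares and false calls therefore hold for that setting and not for genes whose spread is wider. Exon lengths and positions are from GENCODE M21. The named genes were all 10 members, every measured gene of the other IL-1 family list, the 4 smallest p in each other pathway list, the sort markers, the 2 most abundant genes of marker lists and those at 0 (printed for the lists whose genes the text describes), and the 5 genes nearest to each of 4 members. S100a8, Cd14, Lyz1, Arg1, Calca and Ccl2 were named after their values were seen. The members and lists were chosen with earlier results of these data known. The NF-kB motif was shortened by 1 letter after the matches of its longer form were seen.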

Additional observations from a re-analysis of the deposited data

How the results depend on the processing

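The 3 members, Il1a, Il1b and Il1rn, were called in every other setting tried except 3: Il1a was lost without the omental tumor library of mouse 3 (adjusted p = 0.166), and all 3 were lost, with 0 members called, without a filter on low counts (0 genes called in all, 0 higher and 0 lower, and 1903 at an unadjusted p under 0.05 in edgeR) and at a minimum count of 50 (4 genes called, 4 higher and 0 lower). In those fits the adjusted p was 0.204 to 0.239 and 0.0637 to 0.0736 for the 3 genes, and the prior degrees of freedom of the spread were 9.72 and 8.54 in place of infinite. Over all genes, 233 were called, 190 higher and 43 lower. Library totals alone gave 28 (26 higher, 2 lower), upper-quartile factors 13 lower, DESeq2 358 (118 lower), limma-voom 107 higher, and an adjusted p under 0.01 gave 146 (17 lower). With the replicate block, paired by mouse, 261 genes were called. Leaving out 1 library gave 60 to 273 called genes, 53 to 248 higher and 6 to 25 lower, and 2 to 3 members.

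Directions turned for genes that did not pass the test. Il18 (0.01) was -0.15 without a filter, -0.28 by limma-voom and -0.10 with the replicate block, and ran from -1.48 to 1.45 with 1 library left out. Il1rl2 (0.02) was -0.14 without a filter, -0.015 in the legacy fit and -1e-04 with the replicate block, and ran from -0.54 to 0.58. With 1 library left out, Il1rl1 ran from -0.039 to 2.31, Il33 from -1.25 to 3.01, Il1rapl2 from -0.29 to 0.99 and Il18bp from -0.63 to 1.85. The cause of these changes was not tested. Over single genes and settings, 421 values kept their direction and side of the threshold, 65 lost the call, 3 gained it and 14 turned. With 2 libraries a group, 4-fold changes were rarely called on simulated counts, so a member that did not pass is not shown to be unchanged.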
